A study of Mus musculus with 8 samples.

Results

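Cyclins are regulatory subunits that switch on cyclin-dependent kinases (CDKs), and 10 genes of this system were followed through a comparison of sorted mouse mammary tumor cells: the D-type cyclins Ccnd1, Ccnd2 and Ccnd3, the E-type cyclins Ccne1 and Ccne2, the mitotic cyclins Ccna2, Ccnb1 and Ccnb2, and the kinases Cdk1 and Cdk2. They were chosen by name. Each was read from the brightest array row that carried its symbol alone, and 9 of the 10 were found among 19938 measured genes. Each of the 9 had a single such row. Ccnb1 had none and was not analysed here.

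RNA was hybridised to 8 Affymetrix Mouse Gene 1.0 ST arrays, which probe each transcript at many points along its length. The cells came from primary mammary tumors, less than 1.0 cm in diameter, of FvB mice with the MMTV-Neu transgene, which uses a mammary-active viral promoter to express Neu, the rat form of the receptor Erbb2. Dissociated cells were sorted by flow cytometry into 4 samples of a tumor-initiating cell (TIC) fraction and 4 of a CD24- fraction, described in the labels as not tumor-initiating. Each TIC sample has a CD24- partner from tumor N251, N260, N283 or the 1:1 pool of N222 and N229, so that 5 tumors gave 4 pairs. The titles were followed for the tumor names, since the growth protocol writes N250 and N261 in place of N251 and N260. The sources used here give neither the age of the mice nor the surface markers that defined the TIC gate.

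Cells enter the cycle when growth signals raise the D-type cyclins, which bind Cdk4 and Cdk6 and begin the phosphorylation of the retinoblastoma protein. This frees E2F factors to switch on the E-type cyclins and Ccna2, whose products drive DNA replication through Cdk2. Cyclins A and B then bind Cdk1 to start mitosis, and their transcripts accumulate late in the cycle. In mammary epithelium Ccnd1 is known as a target of Neu signalling, and Ccnd2 is known as a prominent D-type cyclin of several blood cell lineages.

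Both fractions held bright epithelial transcripts, and leukocyte transcripts were far higher in the CD24- fraction. The mean level of 8 luminal markers was 10.77 to 10.90 on the log2 intensity scale in the TIC arrays and 9.87 to 10.75 in the CD24- arrays, where N251 was lowest. The mean of 12 macrophage markers was 6.42 to 6.78 in the TIC arrays and 9.47 to 11.97 in the CD24- arrays, and that of 8 pan-leukocyte markers 6.71 to 7.02 and 9.63 to 12.00. Of the 12 macrophage markers 9 fell in the TIC fraction, as did 6 of the 8 pan-leukocyte markers and 3 of 10 T and NK cell markers (limma, adjusted p under 0.05). Adgre1, Mrc1, Mpeg1 and Aif1 of the macrophages and Ptprc, Cd53 and Cd52 of all leukocytes lay below the lower quartile in the TIC fraction. In that fit 0 of 6 B cell, 7 neutrophil, 8 fibroblast, 8 endothelial, 8 luminal and 6 basal markers were called. In sorted bulk samples fewer cells of a type and less RNA per cell cannot be told apart.

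In every tumor the TIC fraction had more Ccnd1, more of the cyclins and CDKs of S phase and mitosis, and less Ccnd2 than its CD24- partner, while Ccnd3 was nearly level. Of the 9 measured genes 7 were higher in TIC in all 4 tumors, where 23.2% of all genes were, and 1, Ccnd2, was lower in all 4, where 11.8% of all genes were. The median difference of the 9 genes, TIC minus CD24- on the log2 scale, was 0.53, against 0.04 over all genes. Without the tumor in the model, limma called 0 of the 9 at an adjusted p under 0.05 (0.0502% of all genes were called higher and 0.742% lower), while 7 of the 9 had an unadjusted p under that value, as did 14.3% of all genes. With the tumor as a block 3 rose, Cdk1, Ccna2 and Ccne2, and 0 fell, against 0.863% of all genes called higher and 1.09% called lower. With the tumor as a random block Cdk1, Ccna2 and Ccnd1 rose and Ccnd2 fell, against 2.16% and 3.04% of all genes. The blocked calls depend on single tumors. Without N260, and equally without N283, the blocked fit called 0 of the 9 and 0 of all genes. Without N251 it called 4 of the 9 higher, where 360 of all 19938 genes were. Without the pool it called 2 of the 9 higher, where 74 of all genes were.

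**Figure D1:**
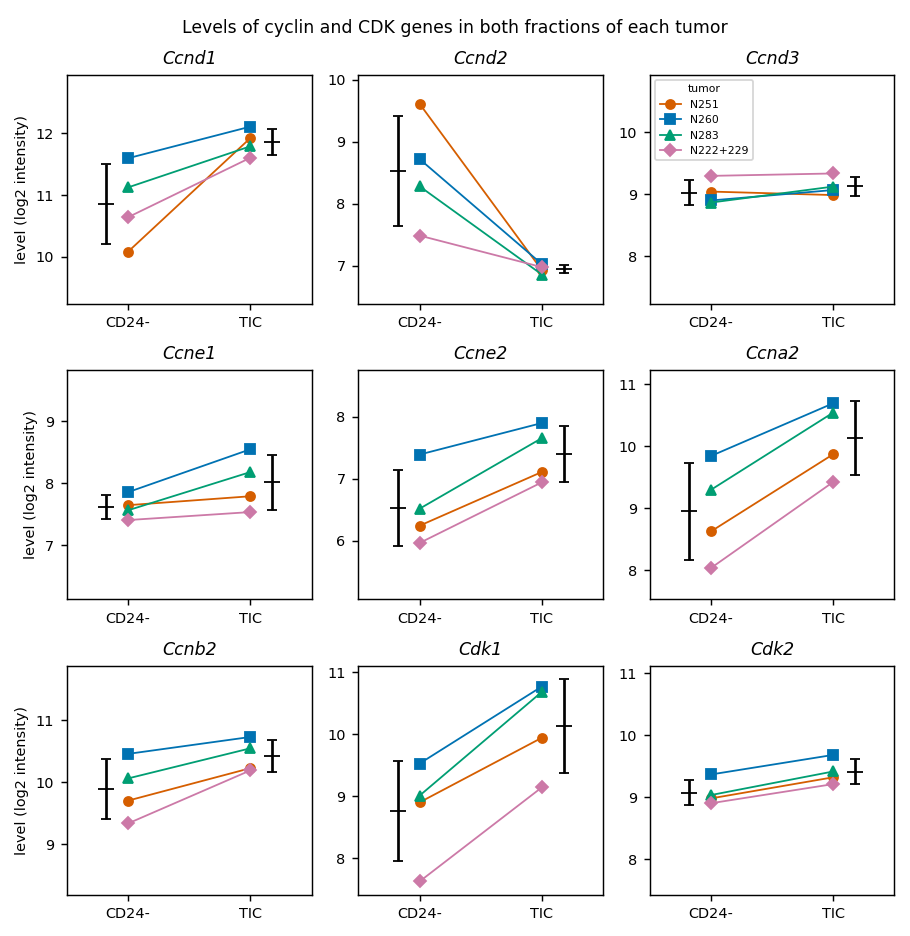
Level of each measured cyclin and CDK gene (log2 intensity, y axis) in the CD24- and TIC fractions, with a line joining both fractions of a tumor and the mean ± SD of 4 arrays in black. Every panel spans the same number of log2 units; lines run upward in all 4 tumors for Ccne2, Ccna2, Ccnb2, Cdk1 and Cdk2, downward to a common low level for Ccnd2, and nearly flat for Ccnd3.

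Cdk1, the kinase that drives entry into mitosis, had the largest positive difference of the 9. In the TIC fraction its level was 9.94, 10.77, 10.69 and 9.14 in N251, N260, N283 and the pool, and in the CD24- fraction 8.90, 9.53, 9.01 and 7.62. The fractions overlapped, because the TIC array of the pool lay below the CD24- array of N260, yet within each tumor TIC was higher. The difference was 1.04, 1.24, 1.68 and 1.52 in N251, N260, N283 and the pool. Its mean was 1.37, 2.59-fold, with an SD of 0.28 over the 4 tumors. The limma SE was 0.46 without the block, which leaves the arrays unpaired, and 0.12 with it. The limma adjusted p was 0.232 without the block, 0.0189 with it and 0.0355 with the random block. Over all genes 0.0702% had a larger positive difference.

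Ccna2, the cyclin that serves Cdk2 in S phase and Cdk1 before mitosis, followed the same course. In the TIC fraction it stood at 9.87, 10.70, 10.55 and 9.42 in N251, N260, N283 and the pool, and in the CD24- fraction at 8.63, 9.84, 9.30 and 8.03. Again N260 was high and the pool low in both fractions, so the groups overlapped while every pair moved upward. The difference of 1.18 ± 0.11 (SE with the block, ± 0.41 without it) ranged from 0.85 in N260 to 1.39 in the pool and equals 2.27-fold. Its limma adjusted p was 0.243 without the block, 0.0189 with it and 0.0389 with the random block.

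Ccnb2, a B-type cyclin of mitosis, differed less and was not called without or with the block. Its TIC levels were 10.23, 10.73, 10.55 and 10.19 and its CD24- levels 9.70, 10.46, 10.06 and 9.34 in N251, N260, N283 and the pool. The CD24- array of N260 exceeded the TIC arrays of N251 and the pool. The difference was positive in each tumor, from 0.27 in N260 to 0.86 in the pool. The mean was 0.53 ± 0.11 (SE with the block, ± 0.23 without it), with limma adjusted p-values of 0.347 without and 0.0787 with the block. Without the CD24- array of the pool alone, which leaves its TIC array unpaired, the mean was 0.35. It was 0.43 without both arrays of the pool.

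The promoters of Cdk1 and Ccnb2, genes measured here that act in mitosis, are shown because late cell-cycle promoters are known to carry a pair of short elements, the cell cycle homology region (CHR, TTTGAA), bound by the MuvB complex, and the CCAAT box, bound by NF-Y. The Cdk2 promoter is shown as that of a partner kinase whose difference was smaller. The sequences are from RefSeq (GRCm38.p6), written 5′ to 3′ on the gene's strand from position -200, with the base before the annotated start numbered -1. Capitals mark matches to the CHR, the CCAAT box and the E2F core (TTCCCGC), each on either strand. The Cdk1 stretch lies at chr10:69352913-69353112, the Ccnb2 stretch at chr9:70421545-70421754, which reaches position 10 after the start, and the Cdk2 stretch at chr10:128705052-128705251, all on the minus strand.
Cdk1: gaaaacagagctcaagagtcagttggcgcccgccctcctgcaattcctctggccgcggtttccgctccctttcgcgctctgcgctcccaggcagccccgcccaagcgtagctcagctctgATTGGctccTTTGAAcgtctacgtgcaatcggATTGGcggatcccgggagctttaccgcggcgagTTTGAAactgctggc
Ccnb2: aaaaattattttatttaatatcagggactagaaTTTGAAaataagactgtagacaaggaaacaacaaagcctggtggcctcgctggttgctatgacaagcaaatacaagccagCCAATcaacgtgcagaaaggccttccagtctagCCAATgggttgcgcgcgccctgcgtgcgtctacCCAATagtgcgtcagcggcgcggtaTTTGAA
Cdk2: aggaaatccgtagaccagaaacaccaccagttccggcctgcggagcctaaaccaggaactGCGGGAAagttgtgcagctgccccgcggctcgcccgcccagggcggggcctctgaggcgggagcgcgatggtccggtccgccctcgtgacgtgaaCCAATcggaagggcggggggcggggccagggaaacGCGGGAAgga

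Motifs were searched on both strands in windows of 300 bases, 250 before and 50 after each start. The Cdk1 window held TTTGAA with its first base at -71 and at -15, and CCAAT on the opposite strand (ATTGG) at -208, -80 and -48. The Ccnb2 window held TTTGAA at -167 and at position 5 after the start, and CCAAT at -87, -54 and -21. The Cdk2 window held CCAAT at -45 and the E2F core on the opposite strand at -140 and -10, and 0 matches to TTTGAA. None of these matches overlapped another. TTTGAA stands in 17.9% of all 32851 windows, CCAAT in 37.4%, both together in 6.95% and TTCCCGC in 4.60%. Another E2F form, TTTGGCGC, stands in 0.514% of windows and in 0 of those of Cdk1, Ccnb2, Cdk2 and Ccne1, and the Ccne1 window held 0 matches to any of the 4 motifs. The window of Ccnb1, also a mitotic cyclin, held CCAAT at -99 and -67 but 0 matches to TTTGAA. Thus 2 of the 3 mitotic genes with a window had a match to TTTGAA. The CHR was searched as these letters only, so a window without a match is not shown to lack the element. Of the Ccnd3 windows 1 held CCAAT, at -108, and 0 held TTTGAA. The windows of Ccna2, Ccnd1, Ccnd2 and Ccne2 were not used here. A match is a stretch of letters and was not tested as a binding site.

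**Figure D2:**
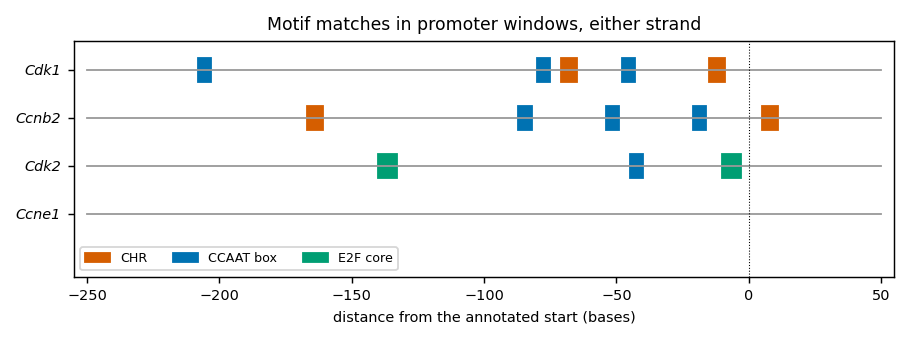
Matches to TTTGAA (CHR), CCAAT and TTCCCGC (E2F core) on either strand, by distance in bases from the annotated start (x axis), in the promoter windows of Cdk1, Ccnb2, Cdk2 and Ccne1. The windows of Cdk1 and Ccnb2 each hold 2 TTTGAA and 3 CCAAT matches, that of Cdk2 holds 1 CCAAT and 2 E2F core matches, and that of Ccne1 holds 0.

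Among the genes of the G1 to S transition, Ccne2 rose with the tumor as a block and Ccne1 and Cdk2 were not called. Ccne2, an E-type cyclin that activates Cdk2, had TIC levels of 7.11, 7.90, 7.66 and 6.94 and CD24- levels of 6.24, 7.39, 6.52 and 5.97 in N251, N260, N283 and the pool. The groups overlapped through N260 alone, since its CD24- array lay above the TIC arrays of N251 and the pool. The difference ranged from 0.51 in N260 to 1.14 in N283, with a mean of 0.87 ± 0.12 (SE with the block, ± 0.32 without it), 1.83-fold. The limma adjusted p was 0.272 without the block, 0.0356 with it and 0.0505 with the random block.

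Ccne1, the other E-type cyclin, had TIC levels of 7.79, 8.55, 8.18 and 7.53 and CD24- levels of 7.64, 7.85, 7.56 and 7.40 in N251, N260, N283 and the pool. The groups overlapped, and the gap between fractions was wider in N260 and N283. It was 0.69 in N260 and 0.62 in N283 against 0.14 in N251 and 0.13 in the pool. The mean was 0.40 ± 0.13 (SE with the block, ± 0.21 without it), with limma adjusted p-values of 0.434 without and 0.162 with the block. Without the TIC array of N260 alone, which leaves its CD24- array unpaired, the mean was 0.22. It was 0.30 without both arrays of N260.

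Cdk2, the kinase of E- and A-type cyclins, showed a small difference of nearly the same size in each tumor. Its TIC levels were 9.32, 9.68, 9.42 and 9.21 and its CD24- levels 8.98, 9.37, 9.04 and 8.90 in N251, N260, N283 and the pool. The CD24- array of N260 lay above the TIC arrays of N251 and the pool, so the groups overlapped. The difference was 0.34, 0.32, 0.38 and 0.31, with an SD over tumors of 0.03. The mean was 0.34 ± 0.07 (SE with the block, ± 0.14 without it), 1.26-fold. It was not called (limma adjusted p = 0.321 without and 0.0742 with the block), and after cyclic loess scaling the mean was 0.21.

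The tumors had one order for the E-, A- and B-type cyclins and Cdk1 and Cdk2 in the TIC fraction, and another for each D-type cyclin. In the TIC arrays Ccne1, Ccne2, Ccna2, Ccnb2, Cdk1 and Cdk2 all ran from N260 at the top through N283 and N251 to the pool, an order that was read from these genes and that 4.84% of all genes had. In both fractions at once 5 of them had it, all but Ccne1, against 0.672% of all genes. Ccnd1, Ccnd2 and Ccnd3 had it in neither fraction, and for Ccnd3 the pool was highest in both. For Cdk1 the range over tumors was 1.63 within the TIC fraction and 1.90 within the CD24- fraction, against the mean difference of 1.37 between fractions. Taking the tumor into the model lowered the residual SD of Cdk1 from 0.78 to 0.20, that of Ccna2 from 0.70 to 0.16 and that of Ccne2 from 0.54 to 0.19. For Ccnd2 it was 0.63 in both fits. A limma F test for differences between the tumors themselves, added after these values were seen, called 0 of the 9 genes and 0% of all genes, with adjusted p-values of 0.103 for Cdk1 and Ccna2 and 0.122 for Ccne2. It called 2 of the 9 with array weights and 3 without N251.

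**Figure D3:**
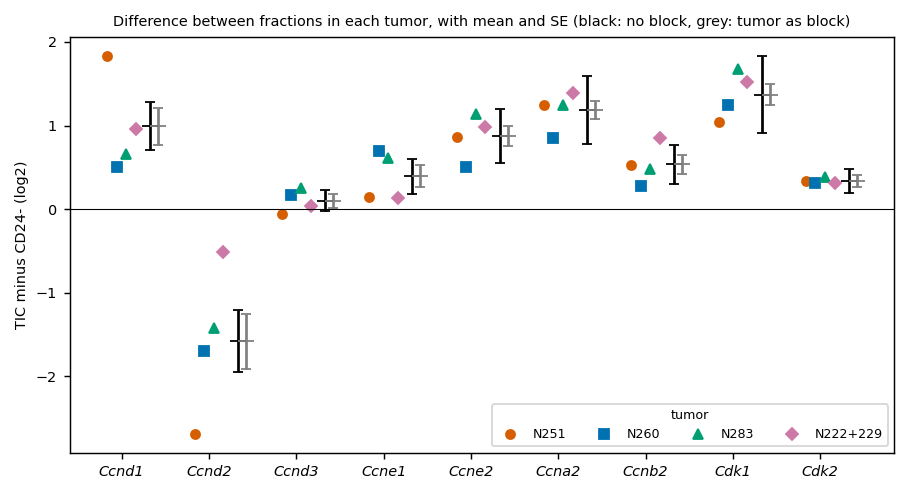
TIC minus CD24- difference (log2, y axis) of each measured gene in each tumor, as coloured points, with the mean ± SE beside them, in black without and in grey with the tumor as a block. The SE of Cdk1 is 0.46 without and 0.12 with the block, and the Ccnd2 difference ranges from -2.69 in N251 to -0.51 in the pool.

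The D-type cyclins went separate ways. Ccnd1, which couples growth factor signals to Cdk4 and Cdk6, had TIC levels of 11.92, 12.11, 11.79 and 11.60 in N251, N260, N283 and the pool, and CD24- levels of 10.09, 11.59, 11.12 and 10.64. All 4 TIC arrays lay above all 4 CD24- arrays, the TIC array of the pool only just above the CD24- array of N260, and 5.19% of all genes were separated in that direction. The difference was 1.84, 0.51, 0.66 and 0.96, with N251 at the top and a mean of 0.99 ± 0.29 (SE, no block), 1.99-fold. Ccnd1 was not called without or with the block (limma adjusted p = 0.177 and 0.0928) and was called with the random block (adjusted p = 0.0410). In the blocked fit without N251 the difference was 0.71 and it was called (limma adjusted p = 0.0284). Without N260, N283 or the pool the blocked fit did not call Ccnd1 (limma adjusted p = 0.292, 0.224 and 0.165). The N251 CD24- array, the lowest for Ccnd1, was also the lowest for the mean of the luminal markers and the highest for that of the macrophage markers. Over the other CD24- arrays both Ccnd1 and the macrophage mean fell from N260 through N283 to the pool. The luminal mean was not in that order there. N260, the highest for Ccnd1, had a macrophage mean of 11.09, above N283 and the pool, and a luminal mean of 10.60, below both. The part of these markers in the Ccnd1 difference was not tested.

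Ccnd2, a D-type cyclin abundant in lymphoid and myeloid cells, had nearly the same TIC level in every tumor, 6.93, 7.03, 6.86 and 6.98 in N251, N260, N283 and the pool, and CD24- levels of 9.62, 8.72, 8.28 and 7.49. The groups did not overlap, as for 4.68% of all genes in that direction, and the tumors were spread widely in the CD24- fraction, with a range of 2.13 there and 0.17 in TIC. The differences, in the same tumor sequence, were -2.69, -1.70, -1.42 and -0.51, with a mean of -1.58 ± 0.37 (SE, no block), 2.99-fold lower in TIC. It missed the threshold without and with the block (limma adjusted p = 0.108 and 0.0807) and passed with the random block (adjusted p = 0.0260). Without the pool it passed with no block too (difference -1.94, limma adjusted p = 0.0423). It did not without N251, N260 or N283 (limma adjusted p = 0.171, 0.581 and 0.304, no block). With the fixed block it passed without N251 or without the pool (limma adjusted p = 0.0428 and 0.0469). Without N260 or without N283 it did not (limma adjusted p = 0.337 and 0.237, fixed block). The CD24- arrays had the same order for Ccnd2 as for the means of the macrophage, pan-leukocyte and T and NK cell markers. The mean of the endothelial markers had it too, over a narrow span from 6.83 in N251 to 6.42 in the pool. The share of all genes with that order is not given here, so the match is not shown to be particular to leukocytes. The macrophage mean differed between fractions by -5.34, -4.60, -3.70 and -2.69 in N251, N260, N283 and the pool, and its part in the Ccnd2 difference was not tested.

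Ccnd3, the remaining D-type cyclin, was nearly equal in both fractions. Its TIC levels were 8.98, 9.07, 9.12 and 9.33 and its CD24- levels 9.04, 8.90, 8.86 and 9.29 in N251, N260, N283 and the pool, which overlap. The difference was -0.06, 0.17, 0.26 and 0.04, with a mean of 0.10 and a 95% interval from -0.10 to 0.31 in the blocked fit (limma adjusted p = 0.777 without and 0.510 with the block). After cyclic loess scaling its sign turned (-0.019), so no direction is given for Ccnd3.

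Cdk4 and Cdk6, the kinases that D-type cyclins bind, had mean differences of opposite sign, although neither was called. Cdk4 was higher in all 4 tumors, at 12.16 ± 0.14 (SD, n = 4) in TIC and 11.91 ± 0.16 in CD24-, with a mean difference of 0.24 ± 0.11 (SE, no block) and a limma adjusted p of 0.381, and 0.159 with the block. Cdk6, named after its values were seen, was at 7.87, 8.20, 8.08 and 8.56 in TIC and 9.30, 9.12, 8.51 and 8.46 in CD24- in N251, N260, N283 and the pool. The differences were -1.43, -0.92, -0.44 and 0.10 in the same sequence of tumors (mean -0.67 ± 0.22, limma adjusted p = 0.226 without and 0.196 with the block).

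**Figure D4:**
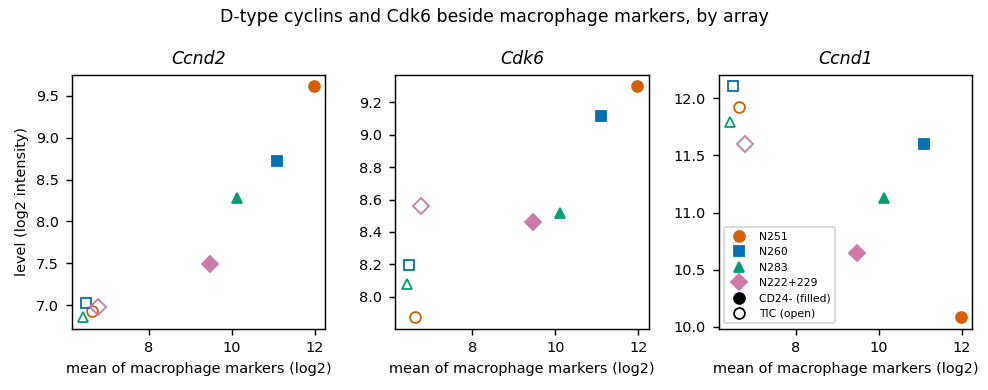
Level of Ccnd2, Cdk6 and Ccnd1 (log2 intensity, y axis, on a separate scale in each panel) against the mean of 12 macrophage markers (log2, x axis) on each array, filled for CD24- and open for TIC, coloured by tumor. CD24- arrays with a higher macrophage mean have more Ccnd2, from 7.49 in the pool to 9.62 in N251, the TIC arrays sit together at the left, and for Ccnd1 the N251 CD24- array is the lowest at 10.09.

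The wider machinery was read from 7 lists with 91 genes, of which 89 were measured. In all 4 tumors TIC was the higher fraction for 41 of these and the lower for 7, where 23.2% and 11.8% of all genes were. The same shares are the background for the counts of each list below. The median difference of the 89 genes was 0.14, against 0.04 over all genes. Without the block 0 were called in either direction by limma, and an unadjusted p under 0.05 was reached by 18 on the higher side and 2 on the lower, against 8.02% and 6.24% of all genes. With the block 3 rose and 0 fell, where 0.863% of all genes rose, and with the random block 7 rose, where 2.16% of all genes did. The 3 called with the fixed block were Foxm1, Cdc25c and Cdc20, genes known for their roles in mitosis. Without N260 or without N283 that fit called none of them. Of these genes Cdc20 alone was also called with the random block (limma adjusted p = 0.0475). Foxm1 and Cdc25c were not (limma adjusted p = 0.0517 and 0.0505).

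Regulators that act directly on CDKs had medians above 0. Of 6 CDK activators and partners 4 were higher in all 4 tumors, with a median of 0.48. Cdc25c, the phosphatase that removes the inhibitory mark from Cdk1, rose with the block by 0.83 ± 0.12 (SE, ± 0.30 without it). Its limma adjusted p was 0.0397 with the block and 0.272 without it. Of 8 measured CDK inhibitors and inhibitory kinases 0 were called without a block, with the fixed block or with the random block, 4 were higher in all 4 tumors, and their median was 0.15. Wee1, a kinase that restrains Cdk1, differed by 0.63, from 0.27 in the pool to 1.40 in N251 (limma adjusted p = 0.348 without and 0.157 with the block). Cdkn1a, whose row also carries another symbol, was not analysed here.

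The 13 retinoblastoma and E2F family genes had a median of 0.35, and all 4 tumors had the same sign for 8 on the higher side and 2 on the lower. With the fixed block 0 were called, and with the random block 4 rose. E2f6, a repressing member of the family, had the smallest blocked p and differed by 0.41 ± 0.08 (SE with the block, ± 0.11 without it). Its limma adjusted p was 0.0627 with the block and 0.160 without it. Of 7 genes of MuvB, B-Myb and FoxM1, factors of late cell-cycle transcription, 3 were higher in all 4 tumors, with a median of 0.13. Foxm1 rose with the block by 0.89 ± 0.10 (SE, ± 0.33 without it), from 0.60 in N251 to 1.10 in N283. Its limma adjusted p was 0.0257 with the block and 0.283 without it.

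Of 20 measured genes of the SCF and anaphase-promoting ubiquitin ligases, which mark cyclins for destruction, 15 had a higher level in TIC in each of the 4 tumors and 0 had a lower one, and the median was 0.25. Cdc20, the mitotic activator of the anaphase-promoting complex, rose with the block by 0.75 ± 0.11 (SE, ± 0.27 without it). Its limma adjusted p was 0.0412 with the block and 0.258 without it. The medians of the remaining cyclins and CDKs were close to that of all genes. Of 18 other cyclins 2 were higher and 4 lower in all 4 tumors (median 0.03), and of 17 other CDKs 5 were higher and 1 lower (median 0.06). Ccnjl, a cyclin J-like gene, stood above the other cyclins of its list with a difference of 1.24 ± 0.29 (SE, no block), 2.37-fold, and was called with the random block (limma adjusted p = 0.0222, against 0.107 without a block and 0.0691 with the fixed block).

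**Figure D5:**
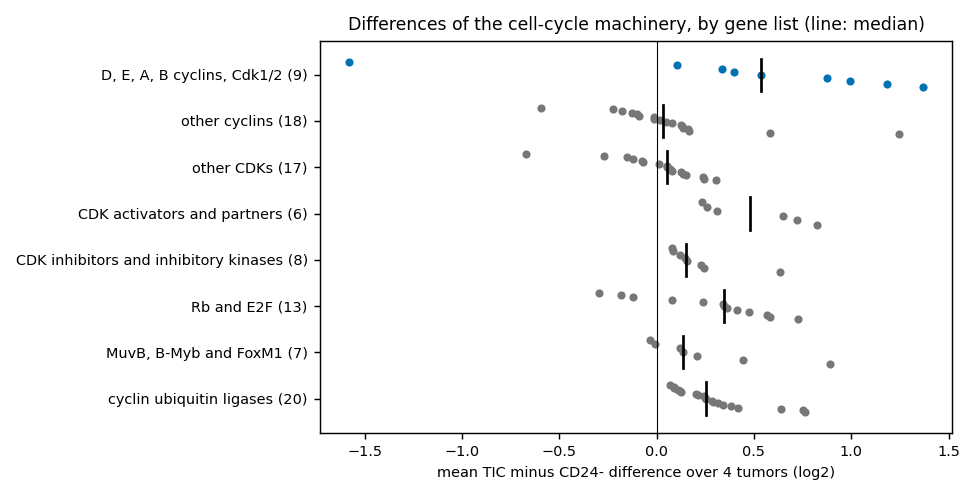
Mean TIC minus CD24- difference over 4 tumors (log2, x axis) of each measured gene, by gene list, with the number of genes in parentheses and a black line at each median. The medians run from 0.03 for the other cyclins to 0.53 for the 9 cyclins and CDKs (blue), whose lowest point is Ccnd2.

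Genes most like a pattern were sought by the root mean square distance (log2) between gene-centred profiles over the 8 arrays. Nearest to the mean profile of Ccna2, Ccnb2 and Cdk1, which had an SD of 0.79 over arrays, were Anln (0.10), Plk1 (0.11), Mcm6 (0.12), Tpx2 (0.14) and Neil3 (0.14). Anln encodes a scaffold of cytokinesis, Plk1 a mitotic kinase, Mcm6 a helicase subunit, Tpx2 a spindle assembly factor and Neil3 a DNA glycosylase. Their differences between fractions ran from 0.87 for Tpx2 to 1.09 for Neil3. Nearest to Ccnd2 (SD 1.03) were Was (0.11), Unc93b1 (0.11), Fermt3 (0.11), Sipa1 (0.12) and Fgf2 (0.14), whose differences ran from -1.70 for Unc93b1 to -1.48 for Sipa1. Was encodes an actin regulator and Fermt3 an integrin activator. Nearest to Ccnd1 (SD 0.69) were Ammecr1 (0.17), Gfpt2 (0.17), Mme (0.18), Golm2 (0.20) and Pcx (0.21). The Ccnd3 profile varied little (SD 0.17), and its nearest genes were Vmn1r43, Mbd1, Prl2c5, Ric8b and Atxn7, at distances from 0.04 to 0.05.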

How the data were processed

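The deposited values are log2 intensities per transcript cluster, made by the authors with RMA and Partek per the submitters' processing notes. The sources used here give no versions, settings or build. Values ran from 1.76 to 14.6, with array medians of 7.03 to 7.18. The highest correlation between arrays was 0.991. Of 35556 rows 21789 carried 1 symbol in the platform annotation, 1621 several and 12146 none, and the brightest row stood for each of 19938 genes. Levels are not comparable between genes, and the number of arrays limits the precision.

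The limma package (3.58.1, R 4.3.3, lmFit and eBayes) fitted the differences on all 8 arrays and all genes, with Benjamini-Hochberg adjusted p-values called under 0.05. The model held the fraction alone, and the tumor entered as a fixed or random block in alternatives. Both fractions came from the same tumor per the labels, and across genes both arrays of a tumor deviated together from the mean of their fraction (correlation 0.32, 0.43, 0.30 and 0.56 in N251, N260, N283 and the pool). Without a block the p-values rest on the spread of arrays within a fraction. With the fixed block they rest on the spread of the within-tumor differences. In both fits eBayes moderates that spread over all genes, and the p-values describe these tumors only. The fits were tested on simulated data.

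Genes and lists were chosen with earlier results of these data known. The rule named all 10 genes, and in each list the genes called without or with the fixed block, or else the one with the smallest blocked p. It also named the 5 nearest profiles to each D-type cyclin and to the mitotic mean, which lacks Ccnb1, leaving out the genes themselves and predicted-gene symbols. Alternatives covered blocks, filters on dim genes, priors, array weights, scalings, row choice, a stricter threshold, and each array or tumor left out.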

Additional observations from a re-analysis of the deposited data

How the results depend on the processing

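The count of cyclins and CDKs called higher in TIC was 0 without a block and remained 0 in each setting run without one. It was 3 with the tumor as a fixed replicate block, 3 as a random replicate block, 3 with the block and either a trended, robust prior or the mean of a gene's rows, 4 with the block and array weights, 4 with the block without N251, 2 with the block without the pool and 2 with the block after cyclic loess. It was 0 with the block without N260, without N283, and at an adjusted p under 0.01, the last chosen after seeing the data. The count called lower was 0, and 1 (Ccnd2) with the random block, with array weights with and without the block, and with the block without N251 or without the pool. Leaving out an array or tumor with no block gave 0 to 1. Among pathway genes the count called higher was 0, and 3 with the fixed block, 7 with the random block, 2 with array weights, 16 with array weights and the block, 3 with the block and a trended prior or the mean of rows, 1 with the block after cyclic loess, 11 with the block without N251 and 2 without the pool. Leaving out an array or tumor with no block gave 0 to 1. The pathway count called lower was 1 with array weights. Over all 19938 genes the counts called higher and lower were 191 and 778 with array weights. With the block they were 445 and 572 with array weights, 360 and 480 without N251, and 74 and 299 without the pool. The Ccnd3 difference was 0.102, and -0.019 after cyclic loess with and without the block. The other 8 genes kept their direction in every setting that tested them. The differences ranged from 0.99 to 1.70 for Cdk1, 0.88 to 1.48 for Ccna2, 0.35 to 0.72 for Ccnb2, 0.69 to 1.16 for Ccne2, 0.22 to 0.56 for Ccne1, 0.21 to 0.44 for Cdk2, 0.69 to 1.24 for Ccnd1 and -1.94 to -1.21 for Ccnd2. These ranges include fits without 1 array, in which its partner stayed unpaired. With a whole tumor left out, the Cdk1 difference ranged from 1.27 to 1.48. The causes of the changes between settings were not tested. Of 59 groups of 4 values examined, either array levels or within-tumor differences, 0 held a value far from the other 3. Chance gives about 3 for independent groups, and these groups share arrays.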

Other observations

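Ccnl1, a cyclin of RNA processing, differed by -0.59 ± 0.32 (SE, no block) and was not called (limma adjusted p = 0.449 without and 0.291 with the block). In N251, N260, N283 and the pool the differences were -1.74, -0.46, -0.05 and -0.13, with an SD of 0.06 over the TIC arrays and 0.77 over the CD24- arrays. Ccnl1 was named here after its values were seen. Ccnjl was higher in TIC, by 2.04, 0.81, 0.67 and 1.46 in the same tumors, with all 4 TIC arrays above all 4 CD24- arrays.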
